A study of Danio rerio with 6 samples.

Results

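Cytosolic ribosomal proteins make up, with the rRNAs, the ribosome, the particle that reads mRNA and joins amino acids into protein. Those of the small subunit hold the mRNA and the decoding site, and those of the large subunit surround the peptidyl transferase centre, the exit tunnel and the stalk that recruits translation factors. In vertebrates their mRNAs begin with a terminal oligopyrimidine (TOP) tract, through which mTOR signalling and the RNA-binding protein Larp1 control how many ribosomes each mRNA carries. Myc family transcription factors are known to raise the transcription of ribosomal protein genes, and the study's title places ribosome production at the centre of the zebrafish mycn model of Feingold syndrome.

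The symbol rule for the genes described here was set with earlier results of these data known. It took all genes whose symbol begins with rpl, rps or rplp and a digit, together with rpsa and rack1. The ribosomal S6 kinases and the Rps19-binding protein were left out. The rule gave 81 of the 21392 genes in the deposited table, 46 of the large and 35 of the small subunit. All 81 were above 0 in all 4 libraries and entered the test, as did 17601 genes in all. Genes that fell outside the symbol rule or are not in the table were not analysed here, except for faua and faub, which encode a ribosomal protein under another name.

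Whole zebrafish embryos at 72 hours after fertilization were used, of the AB strain in the wild-type group and labelled Mycn mutant in the other, with no allele or zygosity stated. Ribosome profiling (Ribo-seq), in which the stretches of mRNA covered by ribosomes survive a nuclease and are sequenced, gave 2 libraries of each genotype, and RNA-seq gave 1 library of each. The values are translation efficiencies, the abundance of footprints of a gene divided by that of its mRNA, with 1 value per gene and Ribo-seq library. The labels do not say whether the 2 libraries of a genotype came from separate clutches, so p-values measure only the spread between these libraries, which may be technical.

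A translation efficiency divides the footprints of a gene by the mRNA of the same gene, so gene length enters both. Whether it cancels was not tested, so differences in level between genes may partly reflect length. A lower ratio can mean fewer footprints or more mRNA. With 1 RNA-seq sample of each genotype, the error of the mRNA measurement is not part of the spread between the 2 libraries of a genotype. In whole embryos each ratio pools all cell types, so a change in tissue make-up and a change within cells cannot be told apart. The ratio of mycn itself was 0.446 and 0.302 in wild type and 0.429 and 0.342 in mutants, which is no check of the genotype because abundance is not in the table. Among markers of other tissues, 9 of 10 tested exocrine pancreas genes had higher ratios in mutants (median log2 fold 1.46), as did 13 of 16 enterocyte genes (0.62), whereas 15 of 20 skeletal muscle genes had lower ones (-0.07). Of 20 listed genes each, 6 of the exocrine and 3 of the enterocyte genes in the table were at 0 in at least 1 library. With these zeros kept the exocrine median was 1.07 over 16 genes and the enterocyte median 0.20 over 19. No tested exocrine gene was without repeated values, that is, values shared with another gene of the same library. Over the 4 enterocyte genes without repeated values the median was -0.05. The part of tissue make-up in the results on ribosomal proteins was not tested.

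In wild-type embryos, ribosomal protein mRNAs had a median translation efficiency of 1.01 and 1.06 in the 2 libraries, against 0.762 and 0.765 for all tested genes. The median ribosomal protein gene stood at the 69.3 and 71.8 percentile of tested genes. In the mutant libraries the median was 0.960 and 0.944, at the 64.5 and 62.4 percentile, while that of all tested genes was 0.779 in both. Both mutant medians of the ribosomal proteins were below both wild-type medians, whereas over all tested genes both mutant medians were above both wild-type ones. Over the 2626 tested genes without repeated values the medians were 0.800 and 0.796 in wild type and 0.784 and 0.769 in mutants. In that set, as in the ribosomal proteins, both mutant medians were below both wild-type ones. The large subunit went from 1.06 and 1.07 to 0.940 and 0.941, and the small subunit from 0.991 and 1.04 to 0.976 and 0.972. The spread between members was wide: 20.2-fold and 35.0-fold from lowest to highest in the 2 wild-type libraries and 16.5-fold and 14.2-fold in the mutant ones. The 35.0-fold value rests on the lowest small-subunit value of wild-type replicate 2. Within the large subunit the spread was 20.2-fold and 18.4-fold in wild type and 16.5-fold and 13.7-fold in mutants.

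**Figure D1:**
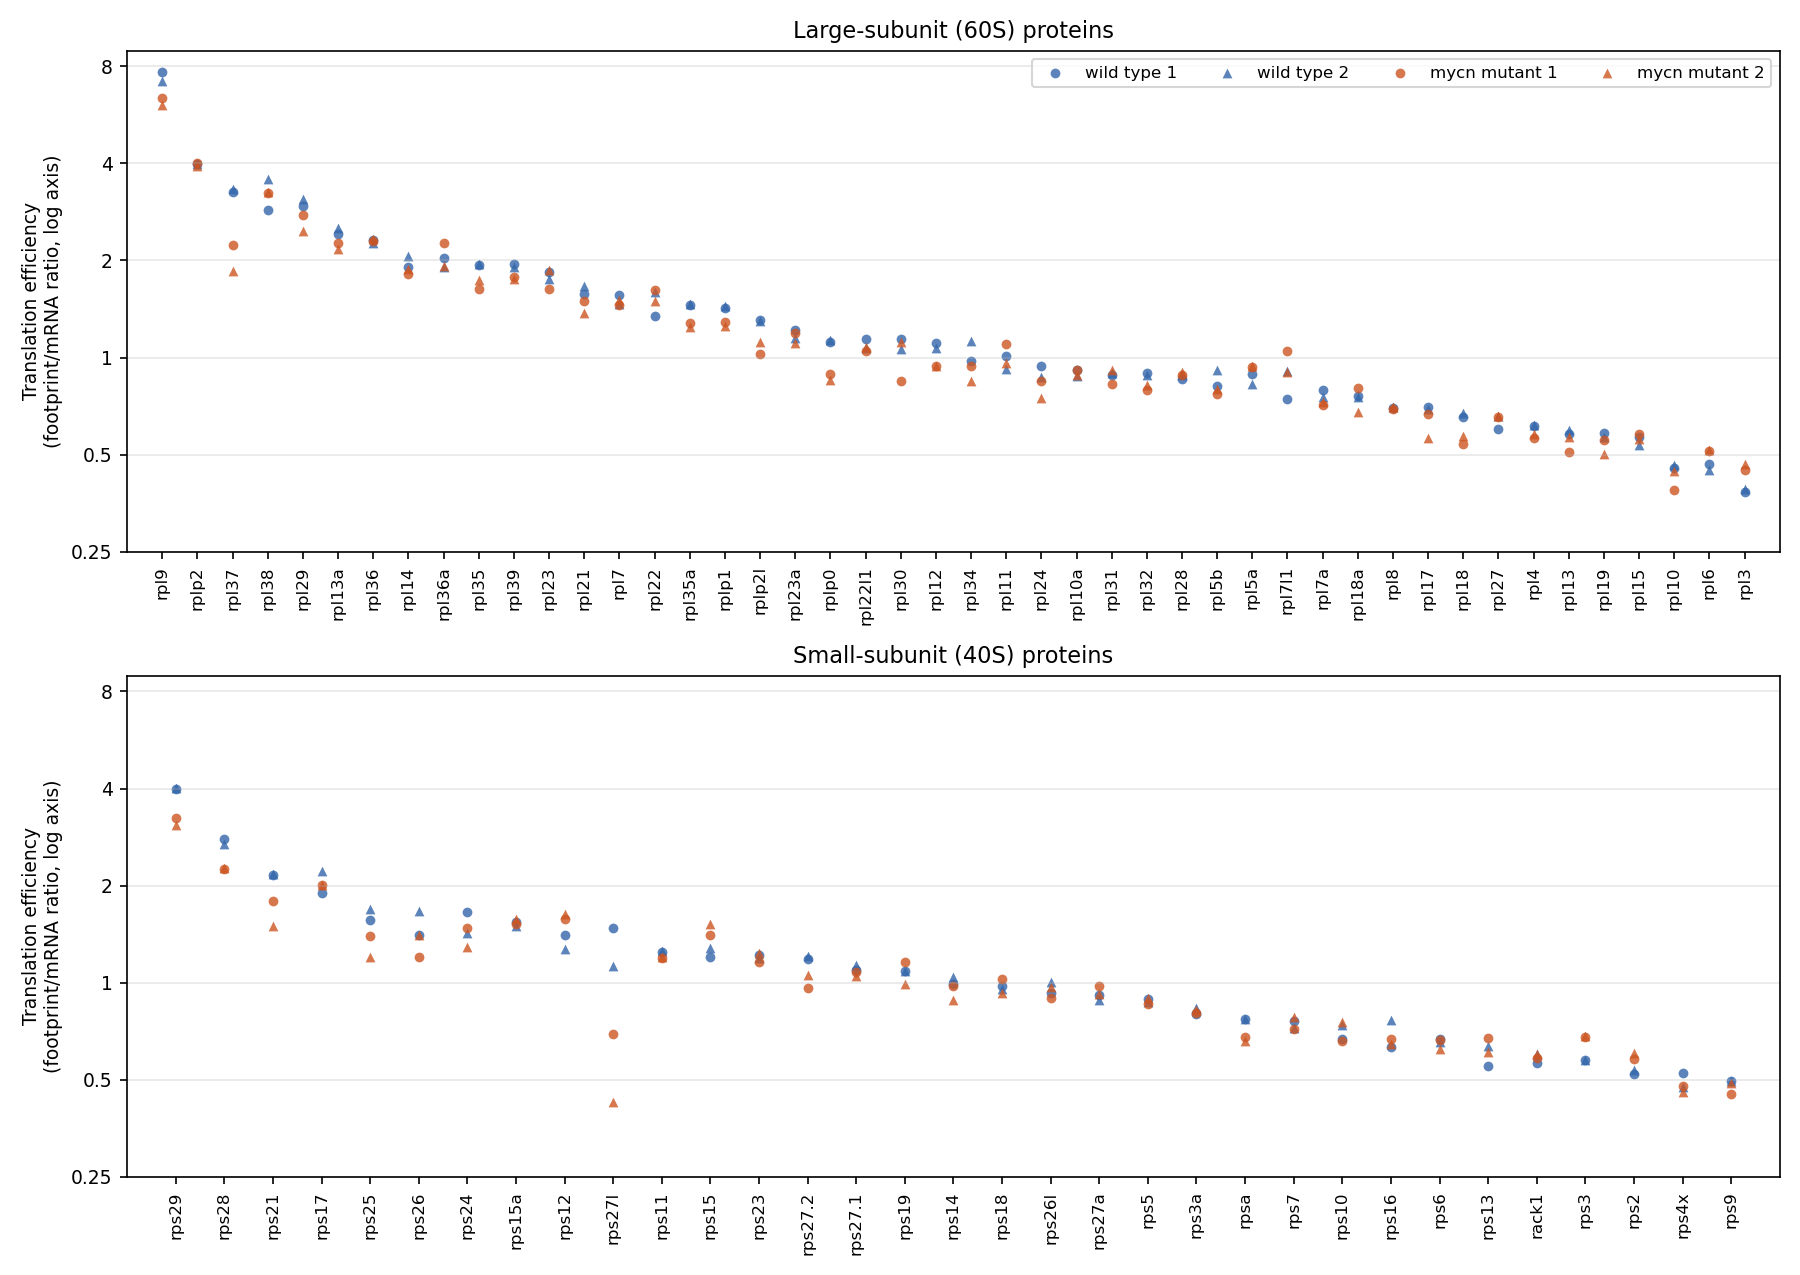
Translation efficiency of each ribosomal protein gene (footprint to mRNA ratio, log axis) in the 4 libraries, ordered by the wild-type mean, with large-subunit genes above and small-subunit genes below; each point is 1 library. Of the 81 genes 79 are drawn. Levels run from 7.70 for rpl9 to 0.382 for rpl3 in wild-type replicate 1, and the order is much the same in both genotypes.

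The highest ratio belonged to rpl9, a protein at the base of the stalk, with 7.70 and 7.23 in wild type and 6.39 and 6.09 in mutants. Next in wild type came rps29, a zinc-binding protein of the small-subunit head, with 4.00 and 4.01 against 3.23 and 3.08 in mutants. The acidic stalk protein rplp2 was at 3.98 and 3.98 against 4.01 and 3.92. In both of the first-named genes the mutant libraries lay below the wild-type ones, while for rplp2 they lay on both sides. The zinc-binding core protein rpl37 was at 3.25 and 3.34 in wild type, within the range of rpl38 (2.87 and 3.57), so that these neighbours in the order do not differ beyond their spread. Rpl38, which in mice is needed for translation of a subset of Hox mRNAs, was at 3.24 and 3.27 in mutants, inside its wild-type range.

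Among the genes at the lower end of the wild-type order was rpl3, which reaches towards the peptidyl transferase centre, at 0.382 and 0.392 in wild type and 0.449 and 0.469 in mutants. Rpl6 was at 0.469 and 0.448 against 0.514 and 0.517. Mutant libraries were higher than wild-type ones for both genes. Rpl10, which joins the large subunit late in its maturation, was at 0.455 and 0.463 against 0.389 and 0.444, and rps9, at the mRNA entry channel, at 0.494 and 0.495 against 0.453 and 0.487. These 2 genes were lower in both mutant libraries, and the wild-type values of rpl6 and rpl10 overlapped. The order of the 81 genes in the mutants was close to that in wild type, with a Spearman correlation of 0.939 between genotype means (0.974 within the large subunit, 0.872 within the small). This is a description over genes of the same libraries. The small-subunit value includes rps27l, whose values are shared with other genes in all 4 libraries. Its rank among the 81 went from 29 in wild type to 73 in mutants. A correlation without such genes was not computed.

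No ribosomal protein gene passed the test of mutants against wild type. The test was limma's moderated test on log2(ratio + 0.1), two-sided, with Benjamini-Hochberg adjustment over all 17601 genes and a threshold of 0.05, and fold changes are on this scale, which understates the change of low ratios. Of all genes tested 0% passed, so the count of 0 among the 81 genes says nothing particular about them. At an unadjusted p under 0.05 there were 3 of 81, among them rps27l and rpl37 on the lower side, against 4.71% of all tested genes lower and 6.78% higher. Each gene had 2 residual degrees of freedom, and the median SE of the log2 fold of the ribosomal proteins was 0.190, while their 2 libraries of a genotype differed by a median of only 0.0612 (wild type) and 0.0709 (mutant) on the log2 scale. Over all tested genes those gaps were 0.344 and 0.355, so ribosomal protein genes repeated better than the typical gene on which the shared error estimate rests.

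The log2 folds of the ribosomal proteins were small and mostly negative. Their median was -0.05, against 0.01 over all tested genes, and 55 were below 0 and 26 above, while 48.7% of all tested genes were below 0. The gap was smaller among the 2626 genes whose value no other gene of the same library shares, called genes without repeated values here. Their median was -0.02, with 53.6% below 0, and that of the 71 ribosomal proteins among them was -0.04, with 48 below 0. The median of all 81 was -0.03 with a pseudocount of 1. After quantile normalization of the libraries it was -0.11 and 65 of the 81 were below 0, and after median centring it was -0.08 with 63 below 0, but both scalings also lowered the median of all tested genes, to -0.03 and -0.01. The sign turned under at least 1 alternative in 29 of the 81 genes. The large subunit had a median of -0.10, with 33 of 46 below 0, and the small subunit one of -0.03, with 22 of 35 below 0. The large-subunit median was -0.04 with a pseudocount of 1. The small-subunit one was -0.02 without wild-type replicate 2, -0.04 without mycn mutant replicate 2 and -0.01 over genes without repeated values. The difference between the subunits was not tested. The log2 fold lay within 0.2 of 0 for 62 of the 81 genes, and within a 1.1-fold difference for 47. Its middle 50% of genes ran from -0.16 to 0.02, against -0.27 to 0.33 over all tested genes.

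In 36 of the 81 genes both mutant libraries were below both wild-type libraries, where 21.6% of all tested genes were. In 10 genes both were above, where 23.1% of all tested genes were, and in 35 the groups overlapped. The lower genes were 24 of 46 in the large subunit and 12 of 35 in the small, and the higher ones 3 and 7. Genes without repeated values had median gaps between the libraries of a genotype of 0.142 (wild type) and 0.172 (mutant) on the log2 scale, smaller than those of all tested genes but larger than those of the ribosomal proteins. Among these 2626 genes the groups did not overlap in the lower direction for 29.1% and in the higher direction for 22.7%. Of the 71 ribosomal protein genes among them, 31 were lower and 9 higher by this count. Paired library by library, a mutant library was below a wild-type library for 51 to 54 of the 81 genes in each of the 4 pairings, against 48.7% to 49.1% of all tested genes. These pairings reuse the same libraries, with 1 RNA-seq sample of each genotype, so they are not independent of each other.

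**Figure D2:**
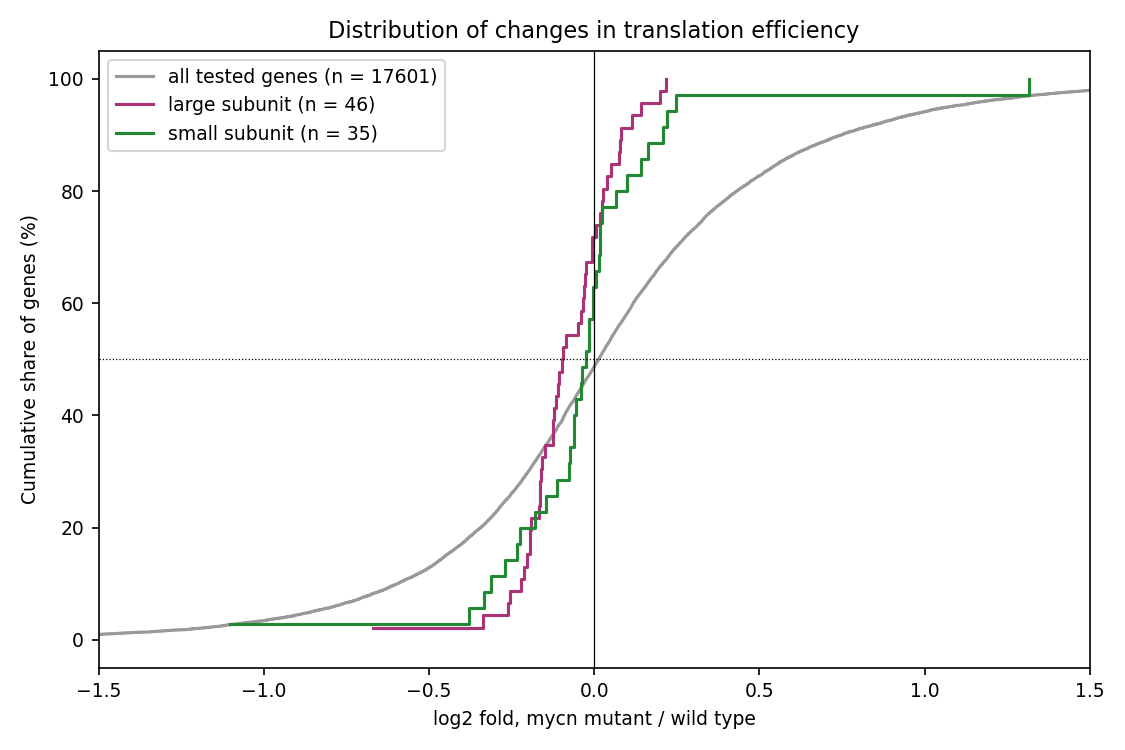
Cumulative share of genes (vertical axis, percent) against the log2 fold of translation efficiency, mutant over wild type (horizontal axis, cropped at 1.5 on both sides), for all 17601 tested genes, the 46 large-subunit and the 35 small-subunit genes. The ribosomal protein lines are steeper than that of all genes, and the large-subunit line crosses 50% at -0.10.

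When the 2626 genes without a repeated value were fitted alone, the SE of the 71 ribosomal proteins among them fell to a median of 0.0920, and still none passed. Of all genes in that fit 0.647% passed as lower and 0.724% as higher, 36 in all. An unadjusted p under 0.05 was found for 8 of the 71, a smaller share than the 19.5% of all genes in that fit. These 8 were rpl37, rpl9, rplp0, rplp2l, rps21, rps25, rps28 and rps29. All of them had negative log2 folds, while the 19.5% counts both directions. The smallest adjusted p of a ribosomal protein in that limma fit was 0.0849, for rpl37.

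**Figure D3:**
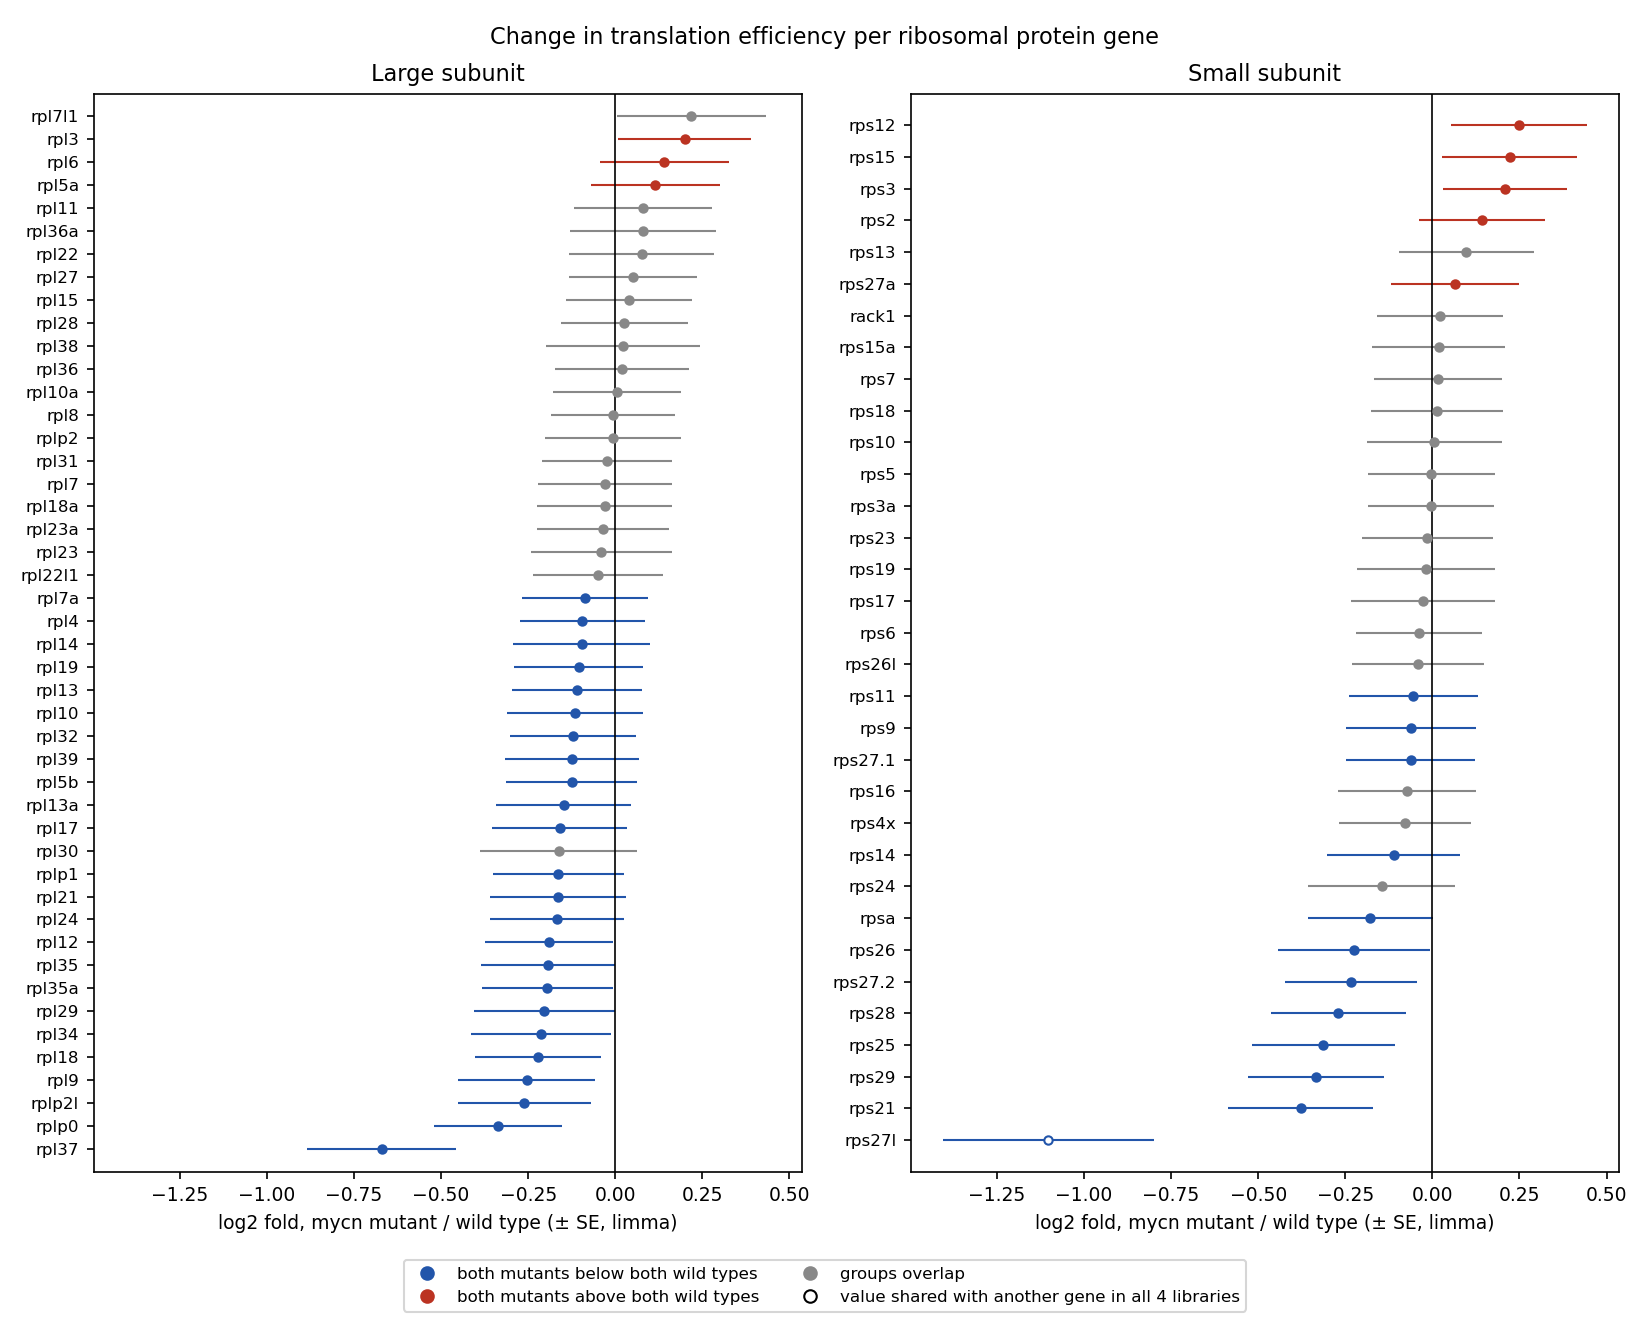
Log2 fold of translation efficiency, mutant over wild type, for each gene with its limma SE (horizontal axis), ordered within the large subunit (left) and the small subunit (right). Of the 81 genes 79 are drawn. Blue points mark the 36 genes whose mutant libraries were both below the wild-type ones, red those whose were both above, grey those that overlap, and the open point rps27l, whose values are shared with other genes in all 4 libraries.

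The largest difference of a ribosomal protein gene without repeated values was that of rpl37. Its ratio was 3.25 and 3.34 in wild type and 2.24 and 1.85 in mutants, so that both mutant libraries were below both wild-type libraries by more than the spread within either genotype. The log2 fold was -0.67 (SE 0.214, 95% confidence interval -1.26 to -0.08), with an adjusted p of 0.399 from limma. Without 1 library at a time it ran from -0.80 to -0.54. In the fit of genes without repeated values alone its 95% confidence interval was -0.98 to -0.36, with an adjusted p of 0.0849 from limma. Neither interval is adjusted for the number of genes.

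The stalk of the large subunit, which carries pairs of acidic proteins and recruits the GTPases of translation, had both mutants below both wild types for 4 of its 5 genes. This count and those of the other groups stand beside 21.6% of all tested genes lower and 23.1% higher, and 44.4% and 12.3% of the 81 ribosomal protein genes. Its base protein rplp0 was at 1.12 and 1.13 in wild type and 0.889 and 0.854 in mutants, with a log2 fold of -0.34 (SE 0.184). Rpl12, which binds beside it, was at 1.11 and 1.07 against 0.940 and 0.944 (log2 fold -0.19), and rplp1 at 1.42 and 1.45 against 1.29 and 1.25 (-0.16). In all of these the groups did not overlap and the libraries of a genotype lay close together. Rplp2l was at 1.31 and 1.30 against 1.03 and 1.12 (-0.26), while rplp2 had a log2 fold of -0.01, with a 95% confidence interval of -0.54 to 0.53 and a sign that turned without mycn mutant replicate 2 (0.01). None passed (the adjusted p of rplp0 was 0.566 with limma), and the median of the 5 was -0.19, between -0.28 after quantile normalization and -0.11 with a pseudocount of 1.

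Rpl5 and rpl11 bring the 5S rRNA into the large subunit, and outside the ribosome they bind the ubiquitin ligase Mdm2. The 3 zebrafish genes did not share a direction. Rpl5a was at 0.886 and 0.831 in wild type and 0.938 and 0.938 in mutants, and rpl5b at 0.815 and 0.915 against 0.770 and 0.798. Neither gene's groups overlapped, with log2 folds of 0.12 (SE 0.184) and -0.12 (SE 0.188). Rpl11 was at 1.01 and 0.922 against 1.0996 and 0.961, with overlapping groups and a log2 fold of 0.08, which is also the median of the 3 and was -0.01 without mycn mutant replicate 1.

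Proteins that line or ring the exit tunnel, through which the new chain leaves, were lower in 7 of 8 cases, with a median of -0.10 that was -0.04 with a pseudocount of 1. The groups did not overlap for 5 of them, all in the lower direction. Rpl35, at the tunnel's mouth, was at 1.93 and 1.95 in wild type against 1.63 and 1.74 in mutants. Rpl39, a very small protein within the tunnel wall, was at 1.95 and 1.91 against 1.78 and 1.75. Both examples were chosen after their values were seen.

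In the small subunit the genes listed under the platform, where the mRNA leaves, had a median of -0.14, with 9 of 10 below 0, 7 of them with non-overlapping groups and 1, rps2, above. Without wild-type replicate 2 that median was -0.10, and it was -0.07 with a pseudocount of 1. The list counts similar genes separately: rps26 and rps26l, and rps27.1, rps27.2 and rps27l. All of these but rps26l are among the 7, and reads that match several copies make their values uncertain. Over the 6 platform genes without repeated values, 5 were below 0 and the median was -0.14. Rps21 was at 2.15 and 2.17 in wild type and 1.79 and 1.503 in mutants, and its log2 fold was -0.38 (SE 0.208, adjusted p = 0.568 from limma). The laminin-receptor protein rpsa was at 0.772 and 0.770 against 0.677 and 0.662, a log2 fold of -0.18. In both genes the wild-type libraries were nearly equal and the mutants lay below them. Rps2, which is in the same list although it sits with rps3 and rps9 at the mRNA entry, lay on the other side, at 0.520 and 0.534 against 0.579 and 0.606 (log2 fold 0.14).

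The head of the small subunit held both the highest and, after rps21, the lowest log2 fold of small-subunit genes without repeated values. Of its 14 genes 7 were below 0 and 7 above, and the median was 0.001, a sign that turned after quantile normalization (-0.03) and median centring (-0.02). It also turned when wild-type replicate 1 (-0.02) or either mutant library (-0.003 for the first, -0.01 for the second) was left out; with the second wild-type library left out it was 0.04. On the lower side, rps29, given above, had a log2 fold of -0.33 (SE 0.196). Rps28, near the mRNA exit, was at 2.80 and 2.70 against 2.26 and 2.27 (-0.27). Rps25, which many viral internal ribosome entry sites need, was at 1.56 and 1.70 against 1.39 and 1.197 (-0.31). These 3 genes did not overlap between genotypes.

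On the higher side of the head, rps12 was at 1.40 and 1.27 in wild type and 1.58 and 1.63 in mutants, with a log2 fold of 0.25 (SE 0.195). Rps15, beside the decoding site, was at 1.198 and 1.28 against 1.41 and 1.52 (0.22). Rps3, at the mRNA entry, was at 0.574 and 0.576 against 0.676 and 0.685 (0.21), with gaps within a genotype far smaller than that between genotypes. None passed, with limma adjusted p of 0.676 for rps12, 0.705 for rps15 and 0.699 for rps3. Rack1, a signalling scaffold on the head, was at 0.565 and 0.599 against 0.582 and 0.602, with a 95% confidence interval of its log2 fold from -0.48 to 0.52 and a sign that turned under median centring. Rps27a, made as a fusion with ubiquitin, was at 0.918 and 0.885 against 0.976 and 0.920, a log2 fold of 0.07 with groups that barely separate. The 11 genes of the body had a median of -0.01, with 6 below 0 and 5 above. That median ran from -0.04 when mutant replicate 2 was left out to 0.03 when mutant replicate 1 was, with -0.002 and -0.03 for the first and second wild-type library. It was -0.04 after median centring, -0.07 after quantile normalization, -0.01 with a pseudocount of 1 and 0.001 over genes without repeated values.

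The 44 ribosomal protein genes outside the rule for named genes had log2 folds between -0.22 and 0.10, with 33 below 0 and 11 above. Both mutants were below both wild types in 18 of these, 16 of the 28 large-subunit and 2 of the 16 small-subunit genes. In none were both above. Over all 81 genes the shares were 44.4% below and 12.3% above, and over all tested genes 21.6% and 23.1%. The counts are shaped by the naming of the 8 highest and 8 lowest folds. The next genes were chosen after their values were seen. Rpl18, with the lowest fold among them, was at 0.654 and 0.674 in wild type against 0.541 and 0.570 in mutants. Rps13 had the highest, 0.10, and its mutant values of 0.675 and 0.608 overlapped the wild-type ones of 0.552 and 0.635. Some genes were nearly level: rpl8, which lies near the peptidyl transferase centre, was at 0.698 and 0.702 against 0.692 and 0.701, with a 95% confidence interval of its log2 fold from -0.50 to 0.49 in the fit of all genes and from -0.23 to 0.22 in that of genes without repeated values.

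**Figure D4:**
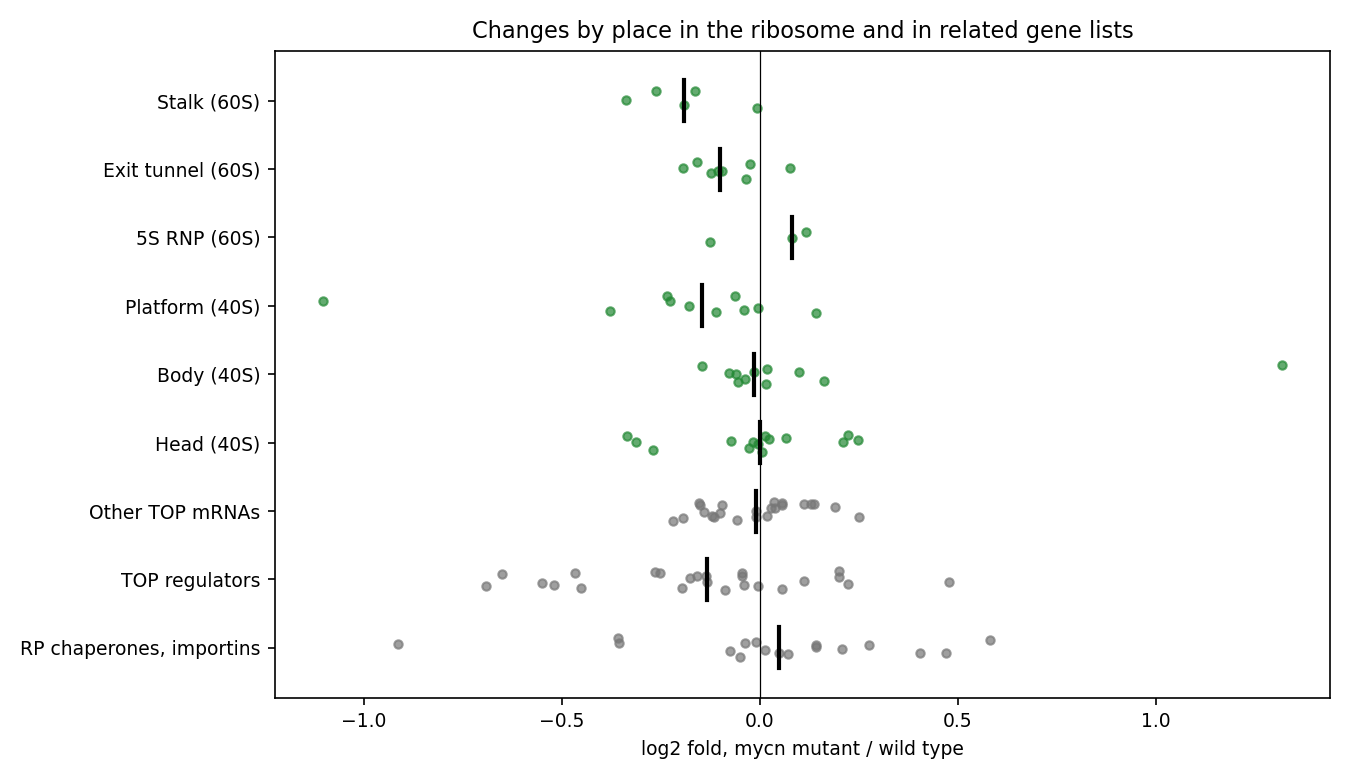
Log2 fold of translation efficiency, mutant over wild type (horizontal axis), of the tested genes by place in the ribosome (green) and in related gene lists (grey); each point is 1 gene, spread vertically only to be visible, and the bar is the median. Stalk, exit tunnel and platform medians lie at -0.19, -0.10 and -0.14, and the head at 0.001, a sign that turned after quantile normalization and median centring.

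Several ribosomal proteins are encoded by pairs or trios of similar genes, and reads that match several copies may have been counted for either, so their values are uncertain to that extent. The members of a family often had quite different ratios.

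Other genes held exactly the value of rps27l in each of the 4 libraries, which can happen where a ratio is made from few reads. Read numbers were not analysed here. Rps27l was at 1.48 and 1.13 in wild type and 0.696 and 0.427 in mutants. Its log2 fold was -1.102 (SE 0.302, adjusted p = 0.361 from limma) and ran from -1.40 to -0.81 without 1 library. Its relatives rps27.1 and rps27.2 differed far less. Rps27.1 was at 1.097 and 1.14 against 1.08 and 1.05 (log2 fold -0.06), and rps27.2 at 1.19 and 1.21 against 0.960 and 1.05 (-0.23).

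The other families were pairs. The ratio of rplp2 to rplp2l was 3.04 and 3.06 in wild type and 3.91 and 3.496 in mutants. Rps26, on the platform, was at 1.41 and 1.67 against 1.199 and 1.41 (log2 fold -0.23), and rps26l at 0.926 and 1.00 against 0.899 and 0.972 (-0.04). The 2 rps26 groups nearly touched, and those of rps26l overlapped. Rpl22, a protein that mice can live without, was at 1.35 and 1.60 against 1.62 and 1.49 (0.08, a sign that turned after quantile normalization), and rpl22l1 at 1.14 and 1.07 against 1.05 and 1.08 (-0.05). Rpl7 was at 1.56 and 1.47 against 1.46 and 1.51 (-0.03), and rpl7l1, related to an assembly factor of the yeast large subunit, at 0.745 and 0.909 against 1.05 and 0.902 (0.22). The groups of the rpl22 and rpl7 families overlapped throughout.

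**Figure D5:**
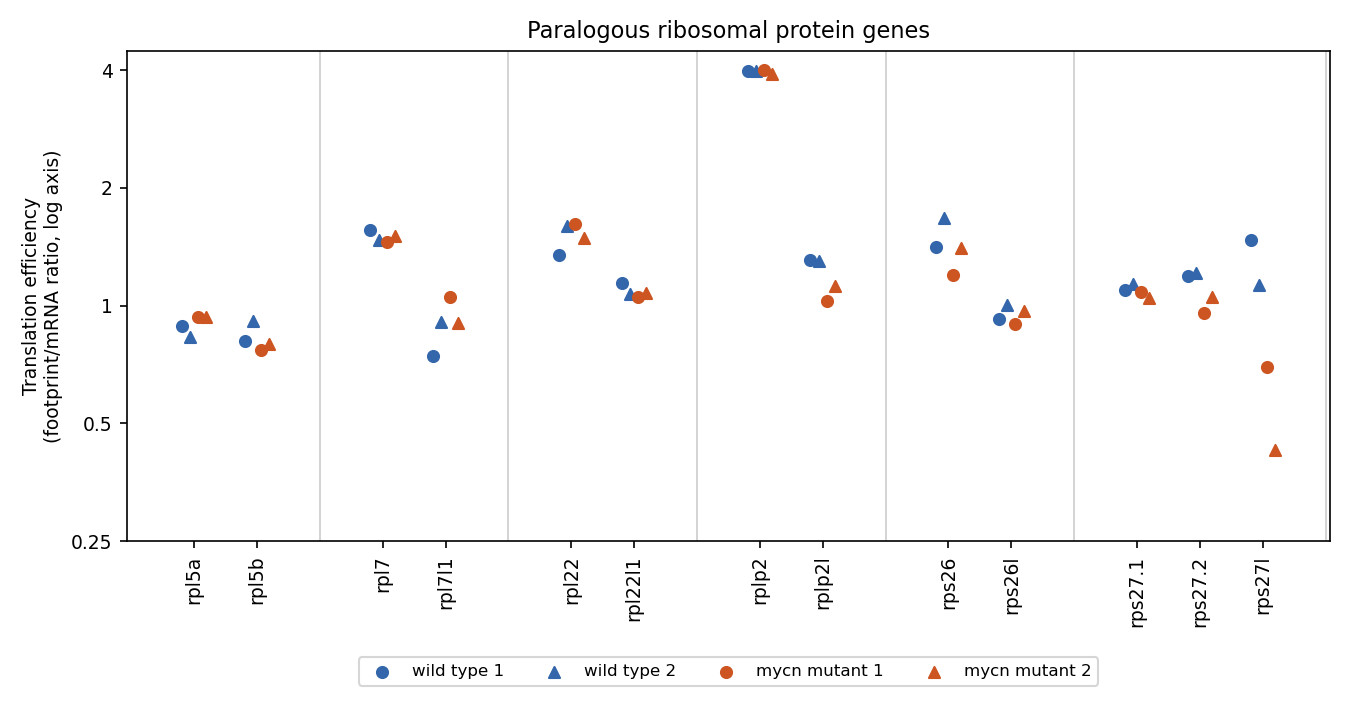
Translation efficiency (footprint to mRNA ratio, log axis) of 13 genes in 6 families of similar ribosomal protein genes, with 1 point for each of the 4 libraries. Rps27l is lower in both mutant libraries than in wild type and shares its values with other genes in all 4 libraries.

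Log2 folds were more negative among the genes with high ratios. Of the 27 genes with the highest mean over all 4 libraries (1.35 to 6.85) the median log2 fold was -0.15, with 20 below 0, 15 with mutants wholly below wild type and 2 wholly above. Of the middle 27 (0.848 to 1.35) it was -0.04, with 19 below 0, 11 wholly below and 3 wholly above. Of the lowest 27 (0.423 to 0.824) it was -0.03, with 16 below 0, 10 wholly below and 5 wholly above. Of all tested genes 21.6% were wholly below and 23.1% wholly above. The Spearman correlation between mean level and log2 fold over the 81 genes was -0.280, a description over genes that share the same libraries and mRNA measurements. The pseudocount shrinks the fold of low ratios and moves with this order.

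Some ribosomal protein genes of vertebrates carry small nucleolar RNAs (snoRNAs), the guides of rRNA modification, in their introns. In RefSeq's gene table for the GRCz12tu assembly, a build other than that of the deposited values and used here only for names and neighbours, 20 of the 81 genes (24.7%) enclosed an annotated snoRNA gene, against 0.416% of the 15872 tested genes that matched by symbol or synonym. The hosts had a median wild-type ratio of 0.771 against 1.08 for the other 61, and median log2 folds of -0.07 and -0.04. Both mutants were below both wild types in 11 of the 20 and in 25 of the 61, and above them in 4 and 6. Over all 81 genes the shares were 44.4% below and 12.3% above, and over all tested genes 21.6% and 23.1%. The difference between hosts and other genes was not tested. Hosts included rpl37, rpl3, rps3, rpl12 and rpsa, so genes of either direction were among them. By the same annotation 13 of the 81 genes overlap another protein-coding gene, among them rplp0, rps12, rps27.2, rps27a, rpl35 and rpl39, and the sources used here do not say whether reads were counted by strand.

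Of the human ribosomal protein genes mutated in Diamond-Blackfan anaemia, a failure of red cell production, 21 zebrafish counterparts were tested. Of these 14 were below 0 and 7 above, with a median log2 fold of -0.04. In 9 both mutants were below both wild types and in 1 above, against 44.4% and 12.3% of all 81 ribosomal protein genes and 21.6% and 23.1% of all tested genes. That median was between -0.09 and -0.08 when wild-type replicate 1 or either mutant library was left out and -0.02 when wild-type replicate 2 was. It was -0.02 with a pseudocount of 1, -0.03 over genes without repeated values, -0.07 after median centring and -0.11 after quantile normalization.

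Related genes outside the rule gave a mixed picture, and none passed. The 2 fau genes, which encode a small-subunit protein fused to a ubiquitin-like one, had log2 folds of 0.02 (faua) and 0.27 (faub, SE 0.457). Other mRNAs known in mammals to carry a TOP tract, such as those of elongation factors and poly(A)-binding proteins, had a median of -0.01 over 23 genes, with 12 below 0 and 11 above. That sign turned without wild-type replicate 2 (0.02) and mutant replicate 1 (0.01), and the value was -0.04 with the first wild-type or the second mutant library left out and after median centring, -0.03 after quantile normalization and -0.003 with a pseudocount of 1. The extremes were hnrnpa1b (-0.22) and eif4ba (-0.19) at the low end and eef1a1a (0.25) and pabpc1b (0.19) at the high end.

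Regulators of TOP mRNAs and of cap-dependent initiation had a median of -0.13 over 24 genes, with 18 below 0, 11 wholly below and 2 wholly above, where 21.6% and 23.1% of all tested genes were. The median was -0.06 when wild-type replicate 1 was left out, -0.07 with a pseudocount of 1 and -0.004 over those genes without repeated values. The lowest were eif4eb, a cap-binding protein, at 1.32 and 1.12 in wild type against 0.782 and 0.654 in mutants (log2 fold -0.69), and mlst8, an mTOR complex subunit (-0.65). The highest were eif4ebp3 (0.48), an inhibitor of cap binding, and cnbpa (0.22), which binds TOP mRNAs. The lists hold both activators and inhibitors.

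Chaperones and importins of ribosomal proteins had a median of 0.05 over 17 genes, with 7 below 0 and 10 above. It was -0.01 without mutant replicate 2 and over the genes without repeated values, 0.02 after median centring, 0.03 after quantile normalization and 0.02 with a pseudocount of 1. They ran from rpf2, which helps to place the 5S rRNA (-0.91, SE 0.530), and ipo9 (-0.36) to ipo4 (0.47) and ltv1, an assembly factor that holds rps3 (0.58, SE 0.220).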

How the data were processed

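The authors deposited ratios of footprint to mRNA abundance, 1 column for each Ribo-seq library, made from FPKM values per the file headers. The sources used here name neither the RNA-seq sample in the denominator nor any filter. The tools STAR, featureCounts and limma and the build GRCz11 come from the submitters' processing notes, without versions or roles. Depth is unknown, so no counting interval is given. Genes at 0 in any library were left out, and limma (version 3.58.1, R 4.3.3) was fitted on log2(ratio + 0.1) with an empirical Bayes trend over all 17601 remaining genes, without a replicate term. The steps were tested on simulated data. A repeated value is one that another gene of the library shares to 9 significant digits. Members, gene lists and tests were chosen with earlier results of these data known. Named genes were the 8 largest and 8 smallest folds, the 5 highest and lowest wild-type levels, stalk, 5S and ubiquitin-fusion genes, rpsa, rack1, paralogs, and the 2 extremes at each end of each related list. The paralog part of that rule asked for 60% protein identity; no protein sequence was used here, so families were taken from symbols after the values were seen. Alternatives were 2 other pseudocounts, 2 filters, 2 scalings, a fit of genes without repeated values, no trend, a replicate block and each library left out; a robust prior and a count without paralogs were added after seeing the data. Some members and related genes are not reported here.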

Additional observations from a re-analysis of the deposited data

How the results depend on the processing

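No ribosomal protein gene passed under any of the 14 alternatives that refit the model. Over all genes 6 passed with a pseudocount of 1, 177 with no filter on zeros, 2 with a mean ratio of at least 0.2 and 36 among genes without repeated values fitted alone; the cause was not tested. The median log2 fold stayed below 0 for all members and for each subunit in every alternative that gives it. For all members (-0.0499) it was -0.112 after quantile normalization, -0.0755 after median centring and -0.0267 with a pseudocount of 1. For the large subunit it was -0.0422 with a pseudocount of 1, -0.105 with 0.01, -0.142 after quantile normalization, -0.121 after median centring, -0.107 without paralogs, and -0.105 to -0.0722 without 1 library. For the small subunit (-0.0261) it was -0.0743 after quantile normalization, -0.0517 after median centring, -0.0169 with a pseudocount of 1, -0.0158 without paralogs, -0.00909 over genes without repeated values, and -0.0414 to -0.0167 without 1 library. The median of all tested genes moved from 0.0130 to -0.0266 with quantile normalization and -0.0126 with median centring. With the replicate block 0 members and 0 genes passed, and the smallest adjusted p of a member was 0.421 against 0.361 without it. Same-numbered libraries did not deviate together (r = 0.00967 over all tested genes, -0.120 over the members), and the labels do not say that the numbers mark a shared clutch. Of 512 values of the 37 named genes, 12 changed sign, in 7 genes near 0; over all 81 members, 52 kept their sign in every alternative and 29 did not. The 7 were rack1 (-0.00352 with median centring, -0.0141 to 0.0582 without 1 library), rpl11 (-0.0076 without mutant replicate 1 to 0.170 without mutant replicate 2), rpl22 (-0.0101 with quantile normalization, -0.0392 to 0.190 without 1 library), rpl38 (-0.211 with quantile normalization, -0.0031 with median centring, -0.130 to 0.175 without 1 library), rpl7 (-0.0703 to 0.0117), rplp2 (-0.0234 to 0.0104) and rps26l (-0.0934 to 0.0121, and 0.0105 without mutant replicate 1). The unknown depth and the single RNA-seq sample of each genotype limit every ratio.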
